A study of Saccharomyces cerevisiae with 6 samples.

Results

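The genes described here serve the route by which budding yeast (Saccharomyces cerevisiae) makes purine nucleotides, and they are IMD2, IMD3, IMD4, GUA1, ADE1, ADE2, ADE4, ADE12, ADE13 and ADE17. They were picked out by gene name, from a list made with earlier results of these data known, and 10 of the 6256 gene probes on the array carry those names. The study measured transcription in strains with altered TBP, the TATA-binding protein, or altered Mot1, an ATPase that takes TBP off DNA. The strains were TBP-F207L and TBP-Y185C, in which a variant TBP bypasses the need for Mot1, mot1-14, with a mutant MOT1 allele, and WT, with wild-type MOT1. Per the labels all 4 had the same parent, AY138, and differed in the plasmid held after FOA, an agent that kills cells carrying URA3: pTBP-F207L, pTBP-Y185C, pMOT244 for mot1-14 and pAV20 for WT. The labels do not give the chromosomal MOT1 and SPT15 alleles of AY138. Cultures were in YPD, a rich medium, at 30 °C, and poly(A) RNA was taken at an optical density of about 1. RNA of each mutant met RNA of WT on 2 two-colour arrays with the dyes exchanged, so WT is the shared control of all comparisons. The WT signal of an array is part of its ratio. No array set WT against WT, so spread between WT cultures was not measured apart. Nothing in the labels tells if a mutant's arrays came from separate cultures, so the spread behind each p-value may be technical.

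In this pathway a ribose phosphate is built up step by step into inosine monophosphate (IMP), from which one branch leads to AMP and the other to GMP. ADE4 encodes the amidotransferase of the first committed step, ADE2 and ADE1 encode enzymes of the middle of the route, ADE13 encodes adenylosuccinate lyase, which acts both before IMP and in the AMP branch, and ADE17 encodes one of the isozymes that close the IMP ring. ADE12 encodes adenylosuccinate synthase, the entry to the AMP branch. IMD2, IMD3 and IMD4 encode IMP dehydrogenases, the entry to the GMP branch, and GUA1 encodes GMP synthase, which ends it. In yeast the ADE genes are switched on by Bas1 and Pho2 when purines run short. IMD2 is known for start-site choice: with ample GTP, RNA polymerase begins upstream and the short transcript is terminated early and degraded, whereas with low GTP it begins downstream and makes mRNA. The IMD genes are close paralogs, so their probes may share signal and their separate values are uncertain.

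The probes of all 10 genes were well above background in both channels on all 6 arrays, and none of their spots was marked as an outlier or saturated. Across genes, the log2 ratios of the arrays of a pair correlated at 0.94 in TBP-F207L, 0.96 in TBP-Y185C and 0.93 in mot1-14. As a check of the labels, the log2 ratio of MOT1 was -2.58 in TBP-F207L, -3.51 in TBP-Y185C and 2.17 in mot1-14, and that of SPT15, which encodes TBP, was 3.63, 4.08 and -0.36 in the same order. MOT1 differed between the TBP-F207L arrays, at -1.74 on array 1 and -3.41 on array 2, and its part in the values below was not tested. Unless called signals, values below are log2 ratios of mutant over WT or of one mutant over another, from background-corrected and loess-normalized intensities, and a gene passed when its adjusted p in limma was under 0.05.

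The 3 IMP dehydrogenase genes were lower than WT in every mutant and ADE12 was lower too, while ADE1 and ADE17 were higher in every mutant. In TBP-F207L, 3 of the 10 genes rose (ADE1, ADE2, ADE17) and 5 fell (IMD2, IMD3, IMD4, ADE12, ADE13), where 40.3% of 6232 genes tested rose and 38.8% fell. In TBP-Y185C, 3 rose (GUA1, ADE1, ADE17) and the same 5 fell, where 41.0% of 6231 genes rose and 38.8% fell. In mot1-14, 2 rose (ADE1, ADE17) and 7 fell (IMD2, IMD3, IMD4, GUA1, ADE2, ADE4, ADE12), where 37.5% of 6127 genes rose and 35.2% fell. Since most genes on the array passed, a call by itself says little here, and the sizes are given below. The median of the 10 values was -0.16 in TBP-F207L, -0.25 in TBP-Y185C and -0.27 in mot1-14, against medians over all genes of -0.0004, -0.0058 and -0.0009.

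**Figure D1:**
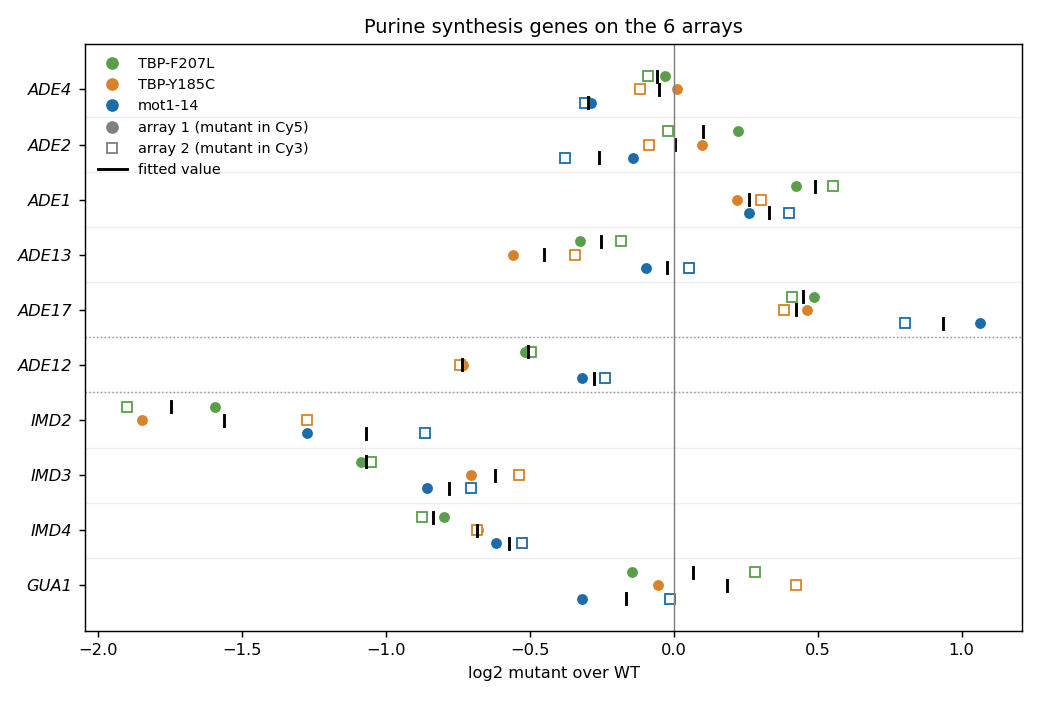
Log2 ratio of mutant over WT (horizontal axis) of the 10 purine genes on each array, ordered along the pathway, with the steps to IMP above the upper dotted line, the AMP branch gene ADE12 between the lines and the GMP branch below. Filled circles are array 1 and open squares array 2 of a mutant, and the black tick is the fitted value. All 6 points of IMD2, IMD3, IMD4 and ADE12 lie left of 0 and all 6 of ADE1 and ADE17 right of it.

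IMD2, the IMP dehydrogenase gene that answers to guanine nucleotide levels, had the largest change of the 10 genes in every mutant. Its normalized signal was 138 and 134 in TBP-F207L on arrays 1 and 2, against 416 and 497 for WT on the same arrays. In TBP-Y185C it was 139 and 117, against 283 to 499 for WT, and in mot1-14 it was 184 and 246, against 444 and 447 for WT. Every mutant signal lay below every WT signal. The log2 ratio was -1.74 in TBP-F207L (adjusted p = 1.6e-05), -1.56 in TBP-Y185C (adjusted p = 2.56e-05) and -1.07 in mot1-14 (adjusted p = 0.000241), each with an SE of 0.13, which are 3.35-fold, 2.95-fold and 2.10-fold lower than WT. Ranked from the lowest ratio, IMD2 was 9 of 6232 genes in TBP-F207L, 12 of 6231 in TBP-Y185C and 19 of 6127 in mot1-14. The arrays of a pair differed more for IMD2 than for its paralogs, with ratios of -1.59 and -1.90 in TBP-F207L, -1.85 and -1.27 in TBP-Y185C and -1.27 and -0.86 in mot1-14. In the WT channel the signal of IMD2 was 283 on TBP-Y185C array 2 and 416 to 499 on the other 5 arrays. The authors' deposited log ratios put IMD2 further from 0, at -2.0 and -2.59 in TBP-F207L, -2.35 and -1.90 in TBP-Y185C and -1.70 and -1.17 in mot1-14.

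IMD3 and IMD4, the other IMP dehydrogenase genes, fell by less than IMD2 but with closer arrays. IMD3 had signals of 1844 and 1659 in TBP-F207L against 3916 and 3435 for WT, 2262 and 2279 in TBP-Y185C against 3684 and 3307 for WT, and 2082 and 2148 in mot1-14 against 3766 and 3501 for WT. Its log2 ratio was -1.07 in TBP-F207L (adjusted p = 5.73e-07), -0.62 in TBP-Y185C (adjusted p = 4.92e-06) and -0.78 in mot1-14 (adjusted p = 2.66e-06), each with an SE of 0.04. IMD4 had signals of 4809 and 3958 in TBP-F207L against 8351 and 7257 for WT, 4303 and 4032 in TBP-Y185C against 6891 and 6476 for WT, and 5397 and 5222 in mot1-14 against 8282 and 7518 for WT. For both genes, too, no mutant signal reached the lowest WT signal. The log2 ratio of IMD4 was -0.84 in TBP-F207L (adjusted p = 1.84e-06), -0.68 in TBP-Y185C (adjusted p = 4.18e-06) and -0.57 in mot1-14 (adjusted p = 1.35e-05), again with an SE of 0.04.

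**Figure D2:**
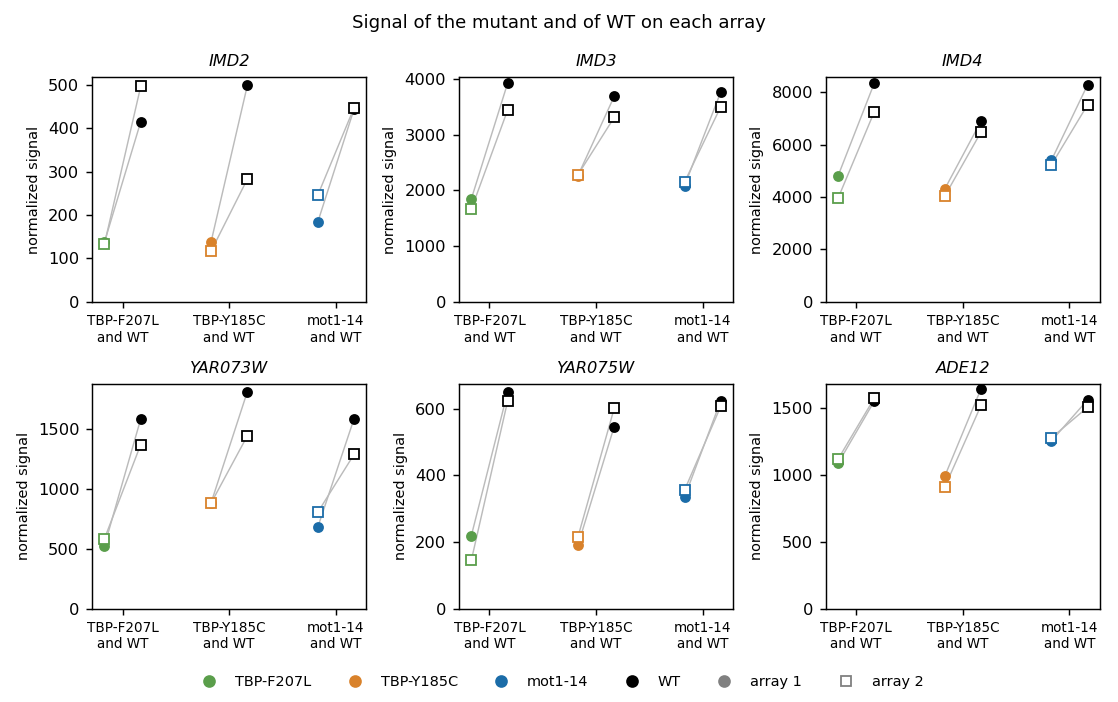
Normalized signal (linear scale from 0) of the mutant (coloured, left of each pair) and of WT (black, right) on each array, joined by a line, for the 3 IMP dehydrogenase genes, the related probes YAR073W and YAR075W, and ADE12. Filled circles are array 1 and open squares array 2. In every panel each mutant point lies below all WT points, and the WT point of IMD2 on TBP-Y185C array 2, at 283, is below the other 5.

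A pair of further probes, YAR073W and YAR075W, bears on how far the IMD signals can be told apart. Both were listed here as probes of the IMD1 pseudogene. YAR073W is named IMD1 in the array's annotation, which calls it an IMP dehydrogenase, and its log2 ratio was -1.41 in TBP-F207L (adjusted p = 4.32e-07), -0.87 in TBP-Y185C (adjusted p = 2.4e-06) and -0.95 in mot1-14 (adjusted p = 2.6e-06), each with an SE of 0.045. YAR075W, to which the annotation gives no function, was at -1.84 in TBP-F207L (adjusted p = 3.8e-06), -1.50 in TBP-Y185C (adjusted p = 8.78e-06) and -0.84 in mot1-14 (adjusted p = 0.000241), each with an SE of 0.10. Both probes thus fell in each mutant, and how much of their signal comes from the other IMD genes was not tested. When genes were ordered by the Euclidean distance of their 6 array ratios from those of IMD2, YAR075W was rank 4 of 6125, at a distance of 0.58 against a median of 3.70 over all genes. YAR073W was rank 48, IMD3 rank 164 and IMD4 rank 259. The 5 nearest probes were PPT1, which encodes a protein phosphatase (0.55), RPS8A, a ribosomal protein gene with a near-identical copy (0.57), FAA4, an acyl-CoA synthetase gene (0.58), YAR075W, and ELP2, which encodes an Elongator subunit (0.59).

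GUA1, the last step to GMP, was called lower in mot1-14 and higher in TBP-Y185C, and the arrays of each pair lay far apart. No test compared it with the IMD genes. Its log2 ratio was -0.15 on array 1 and 0.28 on array 2 in TBP-F207L, -0.06 and 0.43 in TBP-Y185C, and -0.32 and -0.01 in mot1-14. On array 2, where the mutant carried the other dye, the value was higher by 0.43, 0.48 and 0.30. The dye term of GUA1 in the fit was -0.20 (red over green), against a median size of 0.05 over all genes and a 95th percentile of 0.17. With that term, GUA1 was at 0.07 in TBP-F207L (95% interval -0.03 to 0.16, adjusted p = 0.156), at 0.19 in TBP-Y185C (adjusted p = 0.00408) and at -0.17 in mot1-14 (adjusted p = 0.00789), each with an SE of 0.04. Without the dye term neither value passed (adjusted p = 0.329 in TBP-Y185C and 0.411 in mot1-14). Without TBP-Y185C array 2 the first was 0.13, and without mot1-14 array 2 the second was -0.09, and these did not pass. With median centring in place of loess, GUA1 was at 0.0025 in TBP-Y185C, which did not pass, and at -0.32 in TBP-F207L, which did (adjusted p = 0.000111).

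ADE12, the entry to the AMP branch, fell in all 3 mutants with close arrays. The ratios on arrays 1 and 2 were -0.51 and -0.49 in TBP-F207L, -0.73 and -0.74 in TBP-Y185C, and -0.32 and -0.24 in mot1-14. The fitted values were -0.50 (adjusted p = 9.75e-06), -0.74 (adjusted p = 1.54e-06) and -0.28 (adjusted p = 0.000249) in that order, each with an SE of 0.03. ADE13, the lyase used both on the way to IMP and to AMP, had ratios of -0.32 and -0.18 in TBP-F207L, -0.56 and -0.34 in TBP-Y185C, and -0.10 and 0.05 in mot1-14. It fell by 0.25 in TBP-F207L (SE 0.03, adjusted p = 0.000333) and by 0.45 in TBP-Y185C (SE 0.03, adjusted p = 1.49e-05). In mot1-14 its value was -0.02 (95% interval -0.10 to 0.06, adjusted p = 0.57).

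The 4 other genes of the route to IMP did not move together. ADE17 rose in each mutant, with ratios of 0.49 and 0.41 in TBP-F207L, 0.46 and 0.38 in TBP-Y185C, and 1.06 and 0.80 in mot1-14. Its fitted value was 0.45 in TBP-F207L (adjusted p = 5.51e-05), 0.42 in TBP-Y185C (adjusted p = 7.06e-05) and 0.93 in mot1-14 (adjusted p = 2.26e-06), each with an SE of 0.04. ADE16, which encodes the other isozyme of the same step, was at -0.005 in TBP-F207L (adjusted p = 0.899), at -0.16 in TBP-Y185C (adjusted p = 0.00277) and at -0.09 in mot1-14 (adjusted p = 0.0429). ADE16 was not called higher in any mutant, and no test compared the isozymes. Its mot1-14 value did not pass without any 1 of the arrays of mot1-14 (-0.12 and -0.06) or TBP-Y185C (-0.09), nor did its TBP-Y185C value without TBP-Y185C array 1 (-0.14).

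ADE1 rose in each mutant, with ratios of 0.43 and 0.55 in TBP-F207L, 0.22 and 0.30 in TBP-Y185C, and 0.26 and 0.40 in mot1-14. The fitted values were 0.49 (adjusted p = 9.5e-06), 0.26 (adjusted p = 0.000229) and 0.33 (adjusted p = 8.07e-05) in that order, each with an SE of 0.03. ADE2, the enzyme after which the red colour of ade2 mutants is known, had ratios of 0.22 and -0.02 in TBP-F207L, 0.10 and -0.09 in TBP-Y185C, and -0.14 and -0.38 in mot1-14. Its arrays disagreed in sign in both bypass strains. The fit gave 0.10 in TBP-F207L (SE 0.03, adjusted p = 0.0254), 0.01 in TBP-Y185C (95% interval -0.07 to 0.09, adjusted p = 0.864) and -0.26 in mot1-14 (SE 0.03, adjusted p = 0.000306). The rise in TBP-F207L was not called without its first array, at 0.08, or without its second, at 0.12. ADE4, the committed step, was at -0.03 and -0.09 in TBP-F207L, 0.01 and -0.12 in TBP-Y185C, and -0.29 and -0.31 in mot1-14. It fell in mot1-14 by 0.30 (SE 0.04, adjusted p = 0.0002), and was at -0.06 in TBP-F207L (95% interval -0.14 to 0.02, adjusted p = 0.162) and -0.05 in TBP-Y185C (95% interval -0.14 to 0.03, adjusted p = 0.204). The 5 genes nearest to ADE4 over the 6 arrays were HTZ1 (a histone variant), SPF1 (an ion pump), RHO3 (a small GTPase), IDI1 (sterol synthesis) and YPT32 (a small GTPase), at distances of 0.11 to 0.14 against a median of 0.87, and ADE2 was rank 224.

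**Figure D3:**
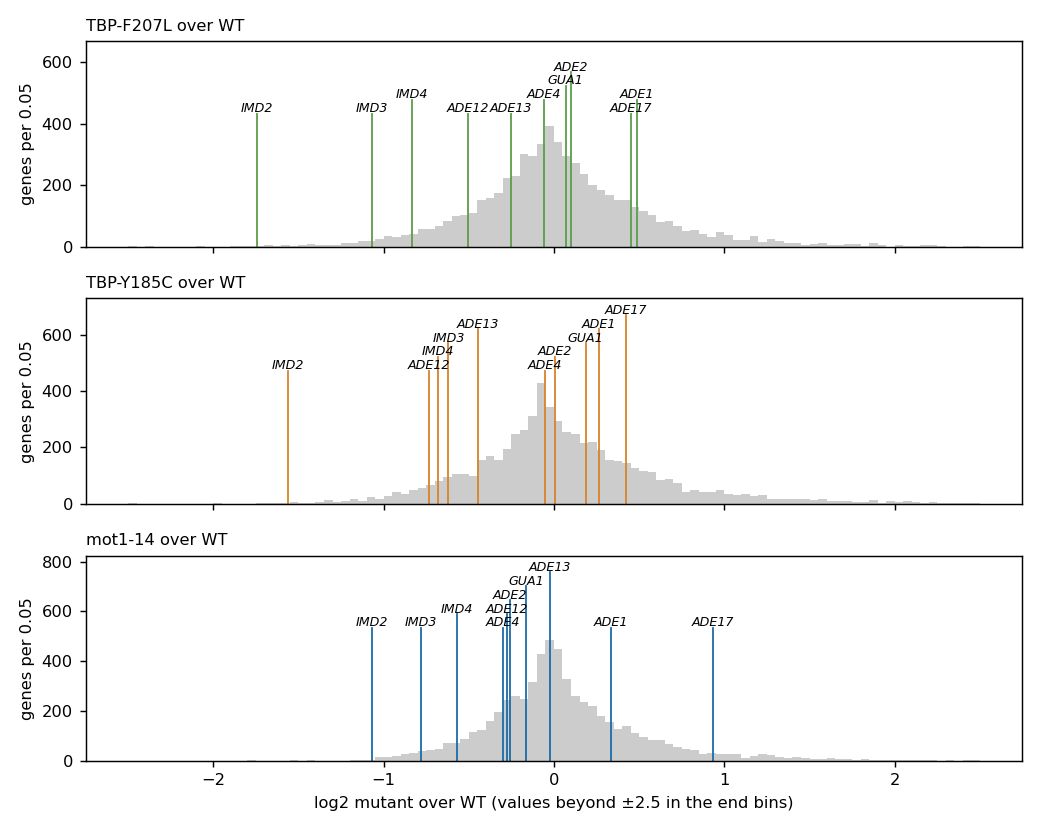
Distribution of the log2 ratio of mutant over WT over all genes tested (grey bars, number of genes per 0.05 log2 units), with the 10 purine genes as coloured lines. IMD2 stands in the lower tail of all 3 panels, while ADE2, ADE4 and GUA1 lie near the centre.

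The bypass strains were next compared with mot1-14 directly. Per the labels they held other plasmids than mot1-14, so these are differences between separate strains and cannot show rescue of mot1-14. TBP-F207L differed from mot1-14 in all 10 genes, 4 higher (GUA1, ADE1, ADE2, ADE4) and 6 lower (IMD2, IMD3, IMD4, ADE12, ADE13, ADE17), where 29.0% of 6127 genes were higher and 29.3% lower. TBP-Y185C was higher than mot1-14 in 4 (IMD3, GUA1, ADE2, ADE4) and lower in 3 (ADE12, ADE13, ADE17), where 26.0% of 6126 genes were higher and 23.8% lower. ADE17 was lower by 0.48 in TBP-F207L than in mot1-14 (SE 0.06, adjusted p = 0.000644) and by 0.51 in TBP-Y185C (SE 0.06, adjusted p = 0.000793). ADE2 was higher by 0.36 in TBP-F207L (SE 0.05, adjusted p = 0.000766) and by 0.27 in TBP-Y185C (SE 0.05, adjusted p = 0.00376), and ADE4 by 0.24 (SE 0.05, adjusted p = 0.00568) and 0.25 (SE 0.05, adjusted p = 0.00653). ADE12 was lower by 0.23 in TBP-F207L and by 0.46 in TBP-Y185C, and ADE13 by 0.23 and 0.43. The IMD genes lay further from WT in TBP-F207L than in mot1-14. The differences were -0.67 for IMD2 (SE 0.18, adjusted p = 0.0177), -0.29 for IMD3 (adjusted p = 0.00329) and -0.26 for IMD4 (adjusted p = 0.00617). In TBP-Y185C the differences were -0.49 for IMD2 (95% interval -0.93 to -0.05, adjusted p = 0.0636), 0.16 for IMD3 (adjusted p = 0.0417) and -0.11 for IMD4 (95% interval -0.24 to 0.02, adjusted p = 0.144).

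Several of these differences did not pass with 1 array fewer, most of them at a similar size. For TBP-F207L against mot1-14, leaving out mot1-14 array 1 took the call from ADE1 (0.14), ADE4 (0.20) and ADE13 (-0.22), and leaving out mot1-14 array 2 took it from IMD2 (-0.54), IMD4 (-0.20), GUA1 (0.16), ADE1 (0.17) and ADE12 (-0.19). The IMD2 difference was -1.07 without TBP-F207L array 1 and -0.28 without its array 2, and that of ADE1 was 0.16 and 0.15, the ADE1 values not passing. The IMD2 difference of TBP-F207L also missed the threshold with the deposited signals (-0.86, adjusted p = 0.0797), the authors' series table (-0.86, adjusted p = 0.0784), no dye term (adjusted p = 0.0816) or no background correction (-0.61, adjusted p = 0.0687). Without the dye term 8 of the 10 TBP-F207L differences did not pass, IMD3 among them (adjusted p = 0.0677). For TBP-Y185C against mot1-14, that setting took the call from IMD3 (adjusted p = 0.291), GUA1 (0.321), ADE2 (0.218) and ADE4 (0.0818). With median centring, GUA1 (0.26, adjusted p = 0.0533) and IMD3 (0.25, adjusted p = 0.0671) missed the threshold there too. For TBP-F207L against mot1-14, median centring took the call from GUA1 (-0.06, adjusted p = 0.665) and ADE1 (0.23, adjusted p = 0.0773). It also took the call there from ADE12 (-0.16, adjusted p = 0.244) and ADE13 (-0.22, adjusted p = 0.0954). In TBP-Y185C the IMD3 difference lost its call without any 1 array of either strain (0.12 to 0.20), and the ADE4 difference without array 1 of mot1-14 (0.21) or of TBP-Y185C (0.20). The IMD2 difference of TBP-Y185C passed, at -0.75, without TBP-Y185C array 2, the array with the low WT signal, and at -0.49 without either TBP-F207L array. With all arrays kept, it passed under median centring, at -0.41 (adjusted p = 0.00152).

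**Figure D4:**
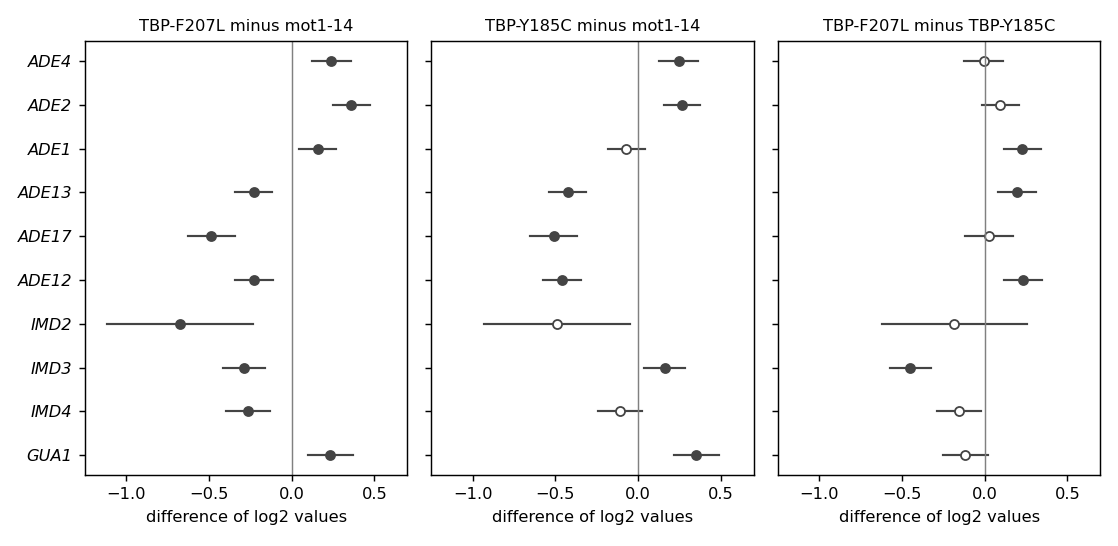
Difference of the log2 ratios between mutants (horizontal axis) for the 10 genes, with 95% intervals, in the fit over all 6 arrays. Filled points passed at an adjusted p of 0.05 and open points did not. ADE2 and ADE4 lie right of 0 and ADE12, ADE13 and ADE17 left of it in both comparisons with mot1-14, and IMD2 has the widest intervals.

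Of the 9 genes that passed in mot1-14, each was put in a class for each bypass strain. The class names compare values of separate strains and do not mean that a mot1-14 defect was repaired. Restored means a difference from mot1-14 toward WT, no pass against WT and under 50% of the log2 change left. Partly restored means such a difference with a pass still in the same direction, retained a pass in the same direction without it, and opposite a pass in the other direction. In TBP-F207L, GUA1 and ADE4 were restored (2 genes, where 11.1% of 4458 genes that passed in mot1-14 were), ADE17 was partly restored (1, against 14.5%), IMD2, IMD3, IMD4, ADE1 and ADE12 were retained (5, against 59.7%) and ADE2 was opposite (1, against 10.9%). In TBP-Y185C, ADE2 and ADE4 were restored (2 genes, where 8.28% of 4457 were), IMD3 and ADE17 were partly restored (2, against 10.3%), IMD2, IMD4, ADE1 and ADE12 were retained (4, against 70.5%) and GUA1 was opposite (1, against 6.37%). The log2 value of ADE4 was 19.7% of its mot1-14 value in TBP-F207L and 17.6% in TBP-Y185C. For ADE17 these were 48.1% and 45.3%. IMD2 instead stood at 163% of its mot1-14 change in TBP-F207L and 146% in TBP-Y185C. The classes of GUA1, ADE2 and ADE4, and that of IMD3 in TBP-Y185C, rest on calls that did not hold in other settings or without 1 array. For ADE2 the mot1-14 value itself did not pass without the dye term (adjusted p = 0.0539).

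TBP-F207L and TBP-Y185C differed from each other in 4 of the 10 genes, ADE1, ADE12 and ADE13 being higher and IMD3 lower in TBP-F207L, where 15.4% of 6231 genes were higher and 21.8% lower. IMD3 was lower by 0.45 (SE 0.05, adjusted p = 0.00172). ADE1 was higher by 0.23 (SE 0.05, adjusted p = 0.0105), ADE12 by 0.23 (SE 0.05, adjusted p = 0.0111) and ADE13 by 0.20 (SE 0.05, adjusted p = 0.02). The last 3 did not pass without the first TBP-Y185C array, at 0.25, 0.26 and 0.16, nor without the second, at 0.20 for ADE1, 0.20 for ADE12 and 0.23 for ADE13, and ADE13 was not called without TBP-F207L array 1 either, at 0.18. For IMD2 the difference was -0.18 with a 95% interval of -0.62 to 0.26, and it was -0.58 without TBP-F207L array 1 and 0.21 without TBP-F207L array 2, both of which passed. It was 0.08 without TBP-Y185C array 2. IMD4, at -0.15 (adjusted p = 0.0693), passed without TBP-F207L array 1, at -0.22.

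Other genes of purine metabolism, with regulators and histidine and glutamine synthesis genes, were counted from lists made for this comparison, 38 genes in all. Of these, 15 were higher and 21 lower in TBP-F207L (all genes: 40.3% higher and 38.8% lower), 14 and 22 in TBP-Y185C (all genes: 41.0% and 38.8%), and 14 and 21 in mot1-14 (all genes: 37.5% and 35.2%), and their median log2 ratio was -0.24, -0.26 and -0.12 in that order. The same shares of all genes apply to the counts of each list below, which are of 2 to 12 genes and are descriptions. Of 5 further genes listed with the route to IMP, 1 rose and 3 fell in TBP-F207L, and 1 rose and 4 fell in both other mutants. ADE6 was at -0.32 in TBP-F207L, -0.73 in TBP-Y185C and -0.33 in mot1-14. ADE3, which serves folate metabolism but was not counted with the one-carbon genes below, was at -0.42, -0.38 and -0.39. ADE5,7 was the one that rose, at 0.17 in TBP-F207L, 0.48 in TBP-Y185C and 0.15 in mot1-14, but it had arrays of opposite sign in TBP-F207L and mot1-14. Its mot1-14 value, 0.14 or 0.15 with 1 of those arrays left out, then did not pass. BAS1, the DNA-binding activator of the ADE genes, fell by 0.40 in TBP-F207L, by 0.52 in TBP-Y185C and by 0.47 in mot1-14. PHO2, its partner, rose by 0.13 in TBP-F207L, which did not pass without TBP-F207L array 2, at 0.09, and was at -0.0014 in TBP-Y185C and -0.05 in mot1-14.

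All 5 PRS genes, whose products make the phosphoribosyl donor PRPP, fell in all 3 mutants, where 38.8% of all genes fell in TBP-F207L, 38.8% in TBP-Y185C and 35.2% in mot1-14. Among them was PRS5, at -0.84 in TBP-F207L, -0.52 in TBP-Y185C and -0.25 in mot1-14. PRS3 was at -0.59, -0.41 and -0.32, and PRS4 at -0.55, -0.51 and -0.36, in the same order. Of 6 genes for one-carbon units and glycine cleavage, all rose in both bypass strains and 5 rose and 1 fell in mot1-14, where 40.3% of all genes rose in TBP-F207L, 41.0% in TBP-Y185C and 37.5% in mot1-14. MTD1, a cytoplasmic methylene-tetrahydrofolate dehydrogenase gene, had signals of 2654 and 2899 in TBP-F207L against 938 and 953 for WT, 1982 and 2284 in TBP-Y185C against 811 and 929 for WT, and 1937 and 2127 in mot1-14 against 1000 and 976 for WT. It rose by 1.55 in TBP-F207L, 1.29 in TBP-Y185C and 1.04 in mot1-14, each with an SE of 0.04. GCV1, a glycine decarboxylase subunit gene, rose by 0.44, 0.47 and 0.82, and SHM2, the cytoplasmic serine hydroxymethyltransferase gene, by 0.27, 0.43 and 0.82, in the same order, of which the TBP-F207L value was 0.15 and did not pass with median centring.

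Among 4 further genes listed here as Bas1 and Pho2 targets, 1 rose and 3 fell in TBP-F207L. In TBP-Y185C 3 fell, and in mot1-14 all 4 fell. The shares of all genes were 40.3% higher and 38.8% lower in TBP-F207L, 38.8% lower in TBP-Y185C and 35.2% lower in mot1-14. These 4 are not all the targets of Bas1 and Pho2, and the ADE genes, which are targets too, moved both ways. The other lists, such as the one-carbon genes that mostly rose, were not sorted by whether Bas1 and Pho2 act on them. The 4 genes thus do not stand for all targets outside the ADE genes. HIS4, of histidine synthesis, was at -1.08 in TBP-F207L, -1.38 in TBP-Y185C and -0.83 in mot1-14, HIS1 at -0.62, -0.91 and -0.87, and the glutamine synthetase gene GLN1 at -0.54, -0.44 and -0.60. Without TBP-Y185C array 1 the GLN1 value in TBP-Y185C was -0.28, which passed. Of 12 genes for purine salvage, interconversion and uptake, 4 rose and 7 fell in TBP-F207L, 5 and 7 in TBP-Y185C, and 7 and 5 in mot1-14, against 40.3% and 38.8% of all genes in TBP-F207L, 41.0% and 38.8% in TBP-Y185C, and 37.5% and 35.2% in mot1-14. ADO1, which encodes adenosine kinase, rose by 0.71 in TBP-F207L, 1.17 in TBP-Y185C and 0.59 in mot1-14, and its TBP-F207L value was 0.23 with median centring, which passed. AAH1, which encodes adenine deaminase and makes hypoxanthine for the guanine branch, fell by 1.09 in TBP-F207L, 0.72 in TBP-Y185C and 0.20 in mot1-14. FCY2, the purine and cytosine permease gene, was at -0.81 in TBP-F207L, -0.14 in TBP-Y185C and -0.68 in mot1-14, and the TBP-Y185C value did not pass without TBP-Y185C array 2, at -0.11.

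**Figure D5:**
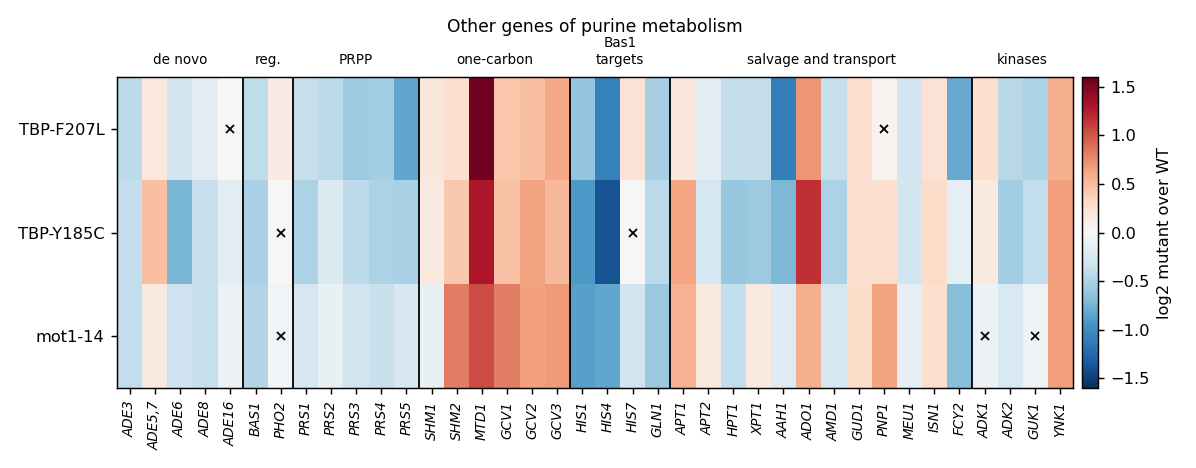
Log2 ratio of mutant over WT (colour scale, red higher and blue lower in the mutant) of the 38 other listed genes in the 3 mutants, grouped by list, with a cross where the gene did not pass. The lists hold purine metabolism genes and also regulators and genes of histidine and glutamine synthesis. The PRS genes are blue in every mutant, the one-carbon and glycine genes red but for SHM1 in mot1-14, and MTD1 has the strongest red, at 1.55 in TBP-F207L.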

How the data were processed

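Arrays were scanned and read with Agilent Feature Extraction 7.5.1 (prefix A), per the file headers. The deposited files give mean and background intensity of 10807 spots in red and green, a log10 ratio of red over green, and its p-value under the software's error model. The deposited series table is on the log2 scale, red over green, which was found from the scanner values (r of at least 0.9989), is not centred (column medians -0.0258 to 0.0247) and is not turned to mutant over WT. The tool is also named in the submitters' processing notes. The median red signal was 8.05 to 22.7 times background and the median green signal 6.74 to 10.8 times.

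With limma 3.58.1 in R 4.3.3, mean signals were corrected by normexp (offset 50) and normalized by loess within arrays, the 544 control spots having weight 0. Marked outlier spots were left out, and spots of a probe averaged. A probe was tested when 2 or more arrays had it well above background in 1 channel or both (6232 of 6256, and 24 were not), and in a mutant only when measured on both its arrays. One model over the 6 arrays had 3 mutant terms, whose sign followed the dye, and a dye term, leaving 2 residual degrees of freedom and 4.81 from the prior. P-values were adjusted by Benjamini-Hochberg per comparison. Normalized signals were set on one scale across arrays by quantile normalization of average intensity, and compare a probe only with itself. The 3 slides held 1 mutant each, so slide and mutant cannot be told apart. The number of arrays limits precision. Systematic names matched the R64 reference table for 5756 probes and did not for 500. The files name no genome build, so no coordinates are given. The code was tested on simulated ratios.

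The genes and lists were chosen with earlier results of these data known. All 10 genes are named, and up to 3 of each list, those with the largest log2 value in any mutant that passed with one sign on both arrays, with MOT1, SPT15 and the 5 genes nearest to IMD2 and to ADE4. ADE16 was added as the isozyme of ADE17.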

Additional observations from a re-analysis of the deposited data

Results flagged for a closer look

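The WT signal of IMD2 was uneven across the 6 arrays. It was 283 on TBP-Y185C array 2 and 416 to 499 on the other 5, so on the log2 scale the gap to the nearest array was 0.676 of the whole range, above the 95% limit for 6 values. The WT signals of the other 9 genes stayed under that limit, and about 1 in 20 such sets passes it by chance, with 10 sets examined. IMD2 has 1 spot per array, so no second spot on the same array can be set beside it. Without TBP-Y185C array 2, IMD2 was at -1.82 in TBP-Y185C (adjusted p = 0.000351), and without array 1 it was at -1.30 (adjusted p = 0.00143), against -1.56 with both.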

How the results depend on the processing

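Each value was recomputed with the deposited processed signals, median centring, the authors' series table, no dye term, each mutant's own arrays, outlier spots kept, other filters on dim probes, each array left out, and no background correction, the last chosen after seeing the data. The slide as a block was not run, since each slide holds 1 mutant. No paired analysis was possible because array numbers stand for the dye orientation alone. Over 60 values of the 10 genes, 773 recomputed values kept direction and side of the threshold, 71 lost the call, 10 gained one and 16 turned in sign. Over counts, 236 stayed within 1.5 times. Against WT, IMD2, IMD3, IMD4, ADE1, ADE12 and ADE17 kept every call in every refit, with IMD2 at -2.30 to -1.35 in TBP-F207L, -2.12 to -1.30 in TBP-Y185C and -1.44 to -0.93 in mot1-14. Of 84 values of other named genes, 1209 recomputed values were kept, 41 lost the call, 1 gained one and 9 turned. Causes of the changes were not tested. Leaving out an array changes both the degrees of freedom and the estimate of spread, and calls were gained as well as lost. Without either TBP-F207L array, IMD2 in TBP-Y185C minus mot1-14 gained a call at an unchanged -0.49.

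Calling a gene only where the deposited p was under 0.01 on both arrays left, of the 10 genes, 0 higher in TBP-F207L and in TBP-Y185C and 1 higher and 3 lower in mot1-14, with 1399, 2066 and 1512 genes in all. ADE1 was then called in no mutant, ADE17 and ADE12 in some only (ADE17 in mot1-14, ADE12 in both bypass strains), and IMD2, IMD3 and IMD4 in all 3. With median centring, 1453 of all genes were higher in TBP-F207L minus mot1-14 and 1341 in TBP-Y185C minus mot1-14. In TBP-F207L minus TBP-Y185C, 470 of all genes were then higher and 889 lower. Without the dye term or an array, the counts over all genes given below are of both directions together. For TBP-F207L minus mot1-14, median centring called 2 higher, no dye term 0 higher, 2 lower and 1582 genes in all, and leaving out an array 2 to 4 higher and 3 to 6 lower. For TBP-Y185C minus mot1-14, median centring called 2 higher, no dye term 0 higher and 965 genes, and leaving out an array 2 to 4 higher and 1792 to 3545 genes. For TBP-F207L minus TBP-Y185C, the deposited signals called 1408 genes, the authors' table of the series 1457 genes, median centring 0 higher, 3 lower and 1359 genes, no dye term 0 higher, 0 lower and 115 genes, and leaving out an array 0 to 4 higher, 1 to 3 lower and 920 to 2304 genes. The count of 0 higher came without either TBP-Y185C array and the 920 genes without TBP-Y185C array 1, the 1792 genes came without that array too, and for TBP-F207L minus mot1-14 the 2 higher came without either mot1-14 array and the 3 lower without its array 2.

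Signs turned for ADE2 in TBP-Y185C with the deposited signals (-0.0674), the series table (-0.0675) or without TBP-Y185C array 2 (-0.0212, up to 0.0338 without array 1). With median centring ADE4 in TBP-Y185C was at 0.0471, GUA1 in TBP-F207L at -0.3214, PHO2 in TBP-Y185C at 0.003, ADE16 in TBP-F207L at 0.0297, ADE1 in TBP-Y185C minus mot1-14 at 0.0731, GUA1 in TBP-F207L minus mot1-14 at -0.0637 and ADE17 in TBP-F207L minus TBP-Y185C at -0.0479. In TBP-F207L minus TBP-Y185C, ADE4 was at 0.0074 with the deposited signals and with the series table, and leaving out an array gave -0.0493 to 0.0363 for ADE4, -0.0208 to 0.0734 for ADE17 and -0.5823 to 0.2149 for IMD2. Leaving out an array also gave -0.0113 to 0.0013 for ADE16 in TBP-F207L, -0.0405 to 0.0376 for PHO2 in TBP-Y185C, and in mot1-14 -0.1289 to 0.0361 for PHO2, -0.0308 to 0.1433 for URA8 and -0.101 to 0.1884 for NAB3. URA8 in mot1-14 was at -0.0061 with the deposited signals and -0.0059 with the series table.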

Other observations

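Genes around the start-site and early termination mechanism known from IMD2 were measured beside it. URA2, a pyrimidine synthesis gene for which such a mechanism has been described, fell by 0.77 in TBP-F207L (SE 0.05, adjusted p = 4.84e-06), by 0.88 in TBP-Y185C (SE 0.05, adjusted p = 2.26e-06) and by 0.62 in mot1-14 (SE 0.05, adjusted p = 1.73e-05). URA8, a CTP synthase gene, fell by 0.455 in TBP-F207L (SE 0.04, adjusted p = 4.72e-05) and by 0.26 in TBP-Y185C (SE 0.04, adjusted p = 0.000914), and was at 0.06 in mot1-14 (adjusted p = 0.265). The TBP-Y185C value of URA8 was -0.17 with median centring and did not pass without the dye term (adjusted p = 0.12). Of the genes for the Nrd1, Nab3 and Sen1 termination factors, NRD1 fell by 0.49 in TBP-F207L (SE 0.03, adjusted p = 8.7e-06) and 0.37 in TBP-Y185C (SE 0.03, adjusted p = 3.33e-05) and was at -0.02 in mot1-14 (adjusted p = 0.55). NAB3 rose by 0.49 in TBP-F207L (SE 0.06, adjusted p = 0.000152) and 0.66 in TBP-Y185C (SE 0.06, adjusted p = 2.79e-05). Its TBP-F207L arrays were at 0.74 and 0.23, and that value did not pass without the dye term (adjusted p = 0.092). In mot1-14 NAB3 was at 0.42 on array 1 and -0.34 on array 2, for a fitted 0.04 (adjusted p = 0.507), and it passed, at 0.19, without array 2. SEN1 was at 0.04 in TBP-F207L, -0.13 in TBP-Y185C and -0.15 in mot1-14, where TBP-Y185C did not pass without its array 1, at -0.09, nor mot1-14 without its array 1, at -0.16, or its array 2, at -0.13. The arrays do not tell transcripts of different start sites apart.

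Nucleotide kinases, which turn the monophosphates of both branches into di- and triphosphates, moved in different directions. YNK1, which encodes nucleoside diphosphate kinase, rose by 0.58 in TBP-F207L, 0.65 in TBP-Y185C and 0.66 in mot1-14, each with an SE of 0.05. GUK1, which encodes guanylate kinase, fell by 0.49 in TBP-F207L (SE 0.03) and by 0.39 in TBP-Y185C (SE 0.03) and was at -0.08 in mot1-14 (adjusted p = 0.0847). ADK2, a mitochondrial adenylate kinase gene, fell by 0.45, 0.56 and 0.24 in the same order, each with an SE of 0.04. Its probe was dim, with signals of 57.2 to 99.8 in the mutants and 78.8 to 119.6 in WT, and with the deposited signals the values were -1.58, -1.47 and -0.72.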
